A study of Rattus norvegicus with 19 samples.

Results

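The comparison described here set 4 hippocampal RNA libraries of rats that carried a deletion on one chromosome and a duplication on the other (Del/Dup replicates 2 to 5) against 6 libraries of wild-type rats (wt replicates 1 to 6). These 10 of the 19 libraries of the series were chosen by the genotype written in the description of each sample, and each library came from 1 male rat. Both groups have 2 copies of the interval from *Sult1a1* to *Spn* on rat chromosome 1, the segment that corresponds to human 16p11.2. In wt the copies lie on separate, unedited chromosomes, and in Del/Dup both copies lie on the duplicated chromosome while its partner has none. The question is whether the arrangement of the copies, with the number held at 2, goes with a difference in expression. The rats were of the outbred Sprague Dawley background, littermates from crosses of a deletion line and a duplication line that had been made with Cas9 and a pair of guide RNAs, so littermates differ at other loci too and every Del/Dup rat has 2 edited chromosomes and no unedited one. The other groups of the series, with 1 copy (Del/+, n = 4) and 3 copies (Dup/+, n = 5), are given only beside the same genes. The age of the rats is not in the labels used here. For wt replicate 5 the genotype field of the label reads Dup/+ while the description reads wt. It was kept as wt, and where the call of a gene described here changed without it, or with it counted as Dup/+, that is given beside the gene.

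Copy number changes of the human 16p11.2 segment are linked to autism and intellectual disability, and deletion and duplication often have opposite effects on body weight and head size. The interval is dense in genes expressed by neurons. Among them are *Mapk3*, which encodes the kinase ERK1, *Kctd13*, which encodes an adaptor that leads the small GTPase RhoA to the CUL3 ubiquitin ligase, *Taok2*, a kinase of dendrite growth, and *Prrt2*, a presynaptic protein that restrains vesicle release. In most tissues the RNA of such genes follows the number of copies. An animal that carries the deletion and the duplication together, named pseudo-disomic, separates the number of copies from their position.

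The guide RNAs that set the ends of the rearranged segment are shown because they define both edited chromosomes of a Del/Dup rat. Both are the target sequences of the Sprague Dawley lines, written 5′ to 3′ as in the study's supplementary text, with no base marked. No whole genome was used here, so their positions are not given. In a search of 33469 promoter windows neither guide had a match.
cr595: gcaatctcacgtgtctgatgg
cr598: gtgacatcgtgaccctgctgg

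Reads counted in genes numbered 19464204 to 25480872 per Del/Dup library and 25642772 to 38760645 per wt library (exact two-sided permutation p = 0.0143, adjusted p = 0.0393 over 11 measures). Multi-mapped reads, which fit several places in the genome, made up 57.8% to 70.7% of all counts in the files, summary lines included, in Del/Dup and 40.1% to 47.6% in wt (exact permutation p = 0.00476, the smallest that 210 splits of 10 libraries allow, adjusted p = 0.0175). A read with several alignments can be counted there more than once, so this is not a share of reads. The groups therefore differed in library composition as well as in genotype, and the 2 cannot be told apart within this comparison. Uniquely placed reads outside genes made up 10.4% of the same counts in Del/Dup and 14.3% in wt (adjusted p = 0.0175, exact permutation), or 29.2% and 25.8% of the uniquely placed reads (adjusted p = 0.0419, exact permutation). The share of reads that overlapped more than 1 gene, of the same counts, was 0.190% in Del/Dup and 0.293% in wt (adjusted p = 0.0175, exact permutation). These counts include the multi-mapped lines, so that share falls as those lines rise. It was not rescaled to the uniquely placed reads, and no separate difference is drawn from it. The number of genes with a read and the shares of the most abundant gene and of mitochondrial, small RNA, ribosomal protein and globin reads had adjusted p values of 0.247 to 0.895. Markers of choroid plexus were high in Del/Dup replicates 2 and 4, and their values stand below. Markers of the hippocampus were abundant, with *Prox1*, the marker of dentate granule neurons, at 76.8 CPM or above and *Slc17a7*, the glutamate transporter of pyramidal and granule neurons, at 1549.9 CPM or above in all 10 libraries (CPM, counts-per-million after scaling for library size).

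Of 15440 genes tested, 14 differed between Del/Dup and wt (edgeR quasi-likelihood test, Benjamini-Hochberg adjusted p under 0.05), which is 0.0907% of the genes. Of these, 7 were higher and 7 lower in Del/Dup. The lower genes with known products were *Sult1a1*, *Eif3c*, *Mical2* and *Vegfb*, and the higher ones were *Cd9*, *Mfn1* and *Col16a1*. The other 7 genes have only clone or LOC names or, as *Rcor2l1*, were close to 0 reads in wt. In 13 of the 14 genes every Del/Dup library lay outside the range of the 6 wt libraries, a pattern found in 2.56% of all genes tested (206 above and 189 below). In the same fit 0.771% of genes were called in Del/+ and 0.272% in Dup/+, each against the same wt libraries. At an unadjusted p under 0.05, 8.15% of genes were higher and 8.06% lower in Del/Dup. The count of called genes was 2 without Del/Dup replicate 4, 6 without replicate 2, 216 without replicate 3 and 23 without replicate 5. It was 91 without wt replicate 5, 4 to 9 without any other wt library or any Dup/+ library, and 7 to 18 without any Del/+ library. Without both Del/Dup replicates 2 and 4, the Del/Dup libraries with the most choroid plexus RNA, it was 2, *Sult1a1* and *AABR07006310.1*, with 2 Del/Dup libraries left in the fit. In that smaller fit 4.71% of all genes had an unadjusted p under 0.05, 2.3% higher and 2.41% lower, against 16.2% with all 4 Del/Dup libraries, and counts of list members without replicates 2 and 4 are to be read beside these shares. The 10 libraries alone gave 3 calls, *Sult1a1*, *Col16a1* and *AABR07015081.2*, and a term for more than 50% multi-mapped reads left *Sult1a1* and *Vegfb*. A later term was set at 55%. All 4 Del/Dup libraries lay above both limits and all 6 wt libraries below both, so the size of each term came from the other groups. At 55% it rested on Del/+ replicate 4 (41.6%) against Del/+ replicates 1 to 3. At 50% it also rested on Dup/+ replicate 4 (50.5%). Neither term can separate genotype from multi-mapped share.

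**Figure D1:**
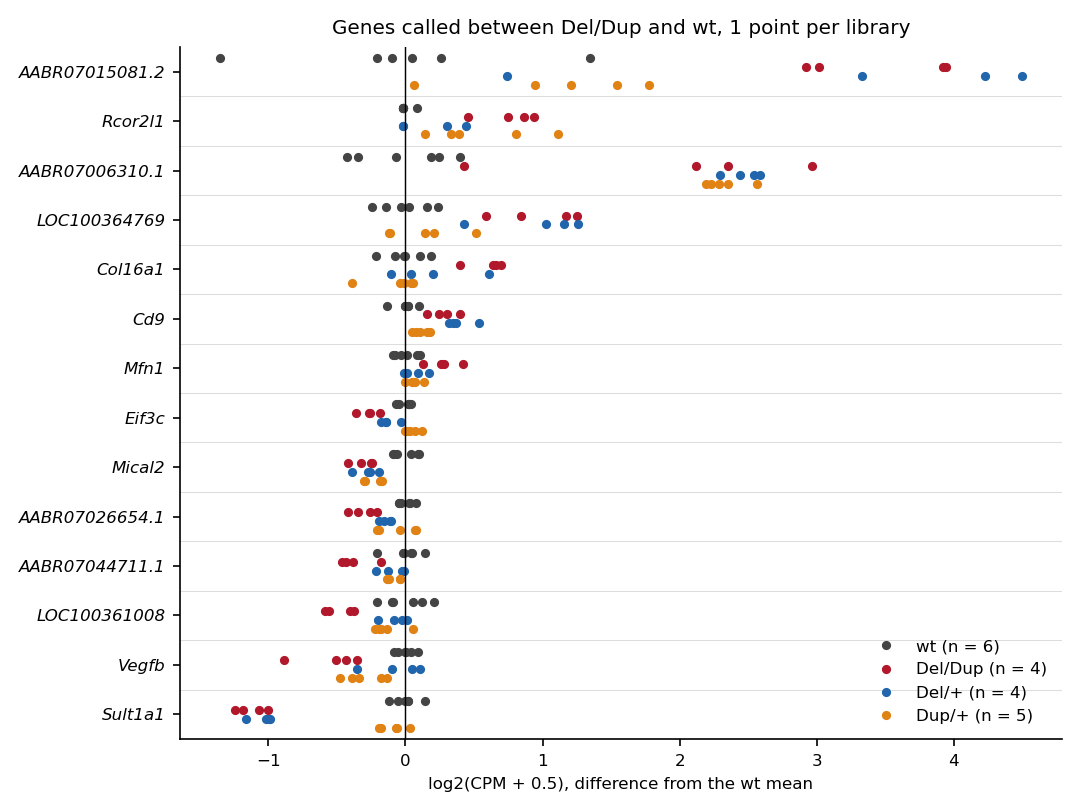
Difference of log2(CPM + 0.5) from the wt mean for the 14 called genes, 1 point per library, with wt in grey (n = 6), Del/Dup in red (n = 4), Del/+ in blue (n = 4) and Dup/+ in orange (n = 5). Red points lie outside the grey range in 13 of the 14 rows, the exception being *AABR07044711.1*.

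*Sult1a1* (ENSRNOG00000019342), which encodes a sulfotransferase that adds sulfate to phenols and catecholamines, stood at 3.22, 3.4, 2.80 and 2.94 CPM in Del/Dup replicates 2 to 5. The 6 wt libraries ranged from 6.68 to 8.11 CPM with a median of 7.35. All Del/Dup libraries thus lay well below all wt libraries. The log2 fold change was -1.23 (SE 0.0869, adjusted p = 1.12e-07), a fold of 0.426, with a 95% interval of -1.42 to -1.04. The Del/+ libraries, which have 1 copy, lay at 2.98 to 3.45 CPM, and the Dup/+ libraries, with 3 copies of the interval, at 6.35 to 7.51 CPM. The log2 fold change against wt was -1.13 in Del/+ and -0.10 in Dup/+ (adjusted p = 0.736), so that the level of *Sult1a1* was near that of wt in the group with a duplicated chromosome and an unedited one. The call in Del/Dup held without any 1 of the 19 libraries, with log2 fold changes of -1.27 to -1.18, and under every other alternative tried. None of the 11 tested members of a list of other sulfotransferases and sulfate donor genes had an unadjusted p under 0.05. The most abundant of them in wt, *Sult4a1*, a brain sulfotransferase, stood at 280.0 to 305 CPM in Del/Dup and 288 to 318 CPM in wt (log2 fold change -0.01).

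The remaining interval genes had no call. Of 37 names on the interval list, 36 were in the files, 31 passed the filter on low counts, and 1, *Sult1a1*, differed. The median log2 fold change over the 31 was -0.06 in Del/Dup, against 0.00 over all genes tested, and it was -1.0 in Del/+ and 0.51 in Dup/+. Of the 31 genes, 26 were called in Del/+ and 21 in Dup/+. A 95% interval on the log2 fold change (15 residual degrees of freedom) lay between the loss of 1 copy of 2 (-1) and the gain of 1 copy (0.585) for 26 of the 31 genes in Del/Dup, and it included 0 for 23. The Del/Dup mean lay between the Del/+ and Dup/+ means for 28 genes. The names of the list that followed the copies in neither Del/+ nor Dup/+ were *AABR07005779.1*, *AABR07005779.3* and *AABR07005779.5*. Their log2 fold changes were -0.22 to 0.07 in Del/+ and -0.19 to 0.21 in Dup/+, and without them the Del/Dup median was -0.07. *Sult1a1* was lower in Del/+ (-1.13) but not higher in Dup/+ (-0.10), so in Dup/+ it did not follow the copies either.

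**Figure D2:**
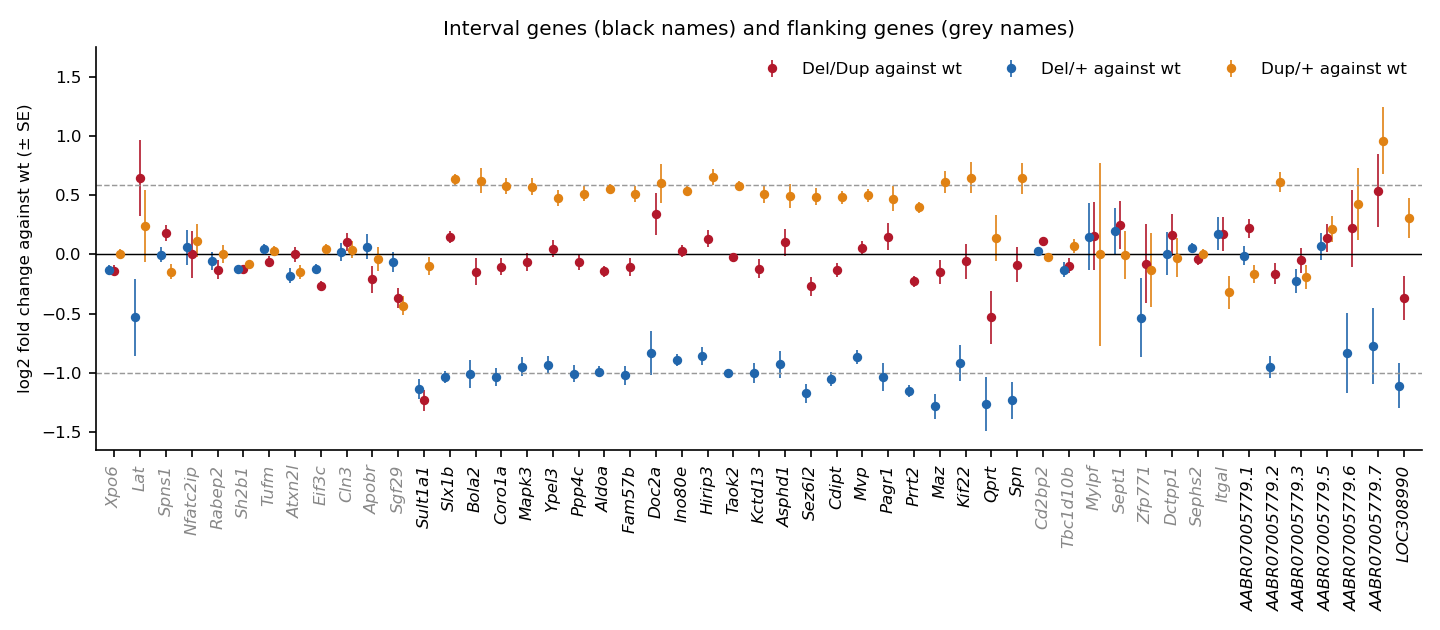
Log2 fold change against wt with its standard error for 31 interval genes (black names) and 20 flanking genes (grey names), in the gene order of the GRCr8 table with unmatched names last, for Del/Dup (red), Del/+ (blue) and Dup/+ (orange). Dashed lines mark -1 and 0.585, the log2 ratios of 1 to 2 and 3 to 2 copies, and the red points lie between -0.53 and 0.64 except for *Sult1a1*, at -1.23.

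The kinase and ubiquitin ligase genes of the interval had small differences with intervals that spanned 0. *Mapk3* stood at 81.2, 98.5, 93.8 and 89.1 CPM in Del/Dup and at 88.5 to 98.4 CPM (median 95.6) in wt. The groups overlapped, and the 95% interval of the log2 fold change was -0.23 to 0.10. For *Kctd13*, with 63.6, 85.3, 77.4 and 78.6 CPM against 79.6 to 85.9 CPM, it was -0.29 to 0.05. *Taok2* had the narrowest interval of the 31 genes, -0.11 to 0.06, with 213 to 224 CPM in Del/Dup and 213 to 224 CPM in wt. *Ino80e*, a subunit of a chromatin remodelling complex, lay at 36.0 to 37.2 CPM in Del/Dup and 33.9 to 37.7 CPM in wt (interval -0.08 to 0.13).

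Among the other interval genes, *Prrt2*, *Aldoa*, *Sez6l2* and *Qprt* lay lower in Del/Dup without being called. *Prrt2* stood at 131, 145, 134 and 133 CPM in Del/Dup, against 153 to 169.6 CPM (median 157) in wt. No library of the groups overlapped, and the log2 fold change was -0.23 (SE 0.0478, adjusted p = 0.0713 in edgeR and 0.00315 in DESeq2). Without wt replicate 5 *Prrt2* was called, with an edgeR adjusted p of 0.0402. In Del/+ and Dup/+ the log2 fold changes of *Prrt2* were -1.15 and 0.40. *Aldoa*, the glycolytic enzyme aldolase A, stood at 1224, 1284, 1299 and 1298 CPM against 1350.2 to 1444 CPM in wt, again with no overlap (log2 fold change -0.14, adjusted p = 0.174). *Sez6l2*, a membrane protein of neurons, stood at 375, 516, 463 and 484 CPM against 483 to 599 CPM (log2 fold change -0.27, adjusted p = 0.154), with the lowest value in replicate 2. *Qprt*, an enzyme of NAD synthesis, also had no overlap, like *Sult1a1*, *Prrt2* and *Aldoa*, at 0.784 to 1.21 CPM against 1.26 to 1.81 CPM (log2 fold change -0.53, adjusted p = 0.253). *Cdipt*, an enzyme of phosphatidylinositol synthesis, had a log2 fold change of -0.13 (unadjusted p = 0.0413). On the higher side, the unadjusted p was under 0.05 for *Slx1b*, a subunit of a DNA repair nuclease (log2 fold change 0.15), and for *AABR07005779.1* (0.22). In all, 8 of 31 interval genes (25.8%) had an unadjusted p under 0.05, 6 lower and 2 higher, beside 16.2% of all genes. *AABR07005779.1* lies beyond *Spn* in the GRCr8 gene order, so its place in the interval is uncertain. Without the 3 clone names that followed the copies in neither Del/+ nor Dup/+, 25% of 28 genes passed, 6 lower and 1 higher. Without Del/Dup replicates 2 and 4 the count was 4 lower and 2 higher of the 31, beside 2.41% and 2.3% of all genes in that fit, and the median was -0.02.

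The summed level of the 31 interval genes was 2611, 2934, 2845 and 2850 CPM in Del/Dup replicates 2 to 5 and 2997 to 3178 CPM in wt. The sums did not overlap, and replicate 2 had the lowest. A large part of each sum came from *Aldoa* and *Sez6l2*, with wt means of 1409 and 554 CPM. The median log2 difference from the wt mean over the 31 genes, in which every gene counts alike, was -0.09, -0.01, -0.04 and -0.04 in Del/Dup and -0.04 to 0.02 in wt, so that replicates 3, 4 and 5 lay within the wt range. In Del/+ the sums were 1447 to 1683 CPM and in Dup/+ 4267 to 4606 CPM. The sum of wt replicate 5, whose label fields disagree, was 3013 CPM, within the range of the other wt libraries and below all Dup/+ libraries, and its median log2 difference from the wt mean was -0.04, against 0.45 to 0.56 in Dup/+. The other interval genes, from *Coro1a* (log2 fold change -0.10), an actin regulator, to *Doc2a* (0.34), a calcium sensor of vesicle release, *Maz* (-0.15), a zinc finger transcription factor, *Ypel3* (0.05), *Ppp4c* (-0.06), a phosphatase subunit, *Mvp* (0.06), the vault protein, *Hirip3* (0.13), *Kif22* (-0.06), a mitotic kinesin, and *Spn* (-0.08), the leukocyte surface protein CD43, had overlapping groups and no adjusted p under that of *Doc2a*, 0.339. *Bola2*, *Fam57b*, *Asphd1*, *Pagr1*, *LOC308990* and the clone-named members ranged in log2 fold change from -0.37 for *LOC308990* to 0.54 for *AABR07005779.7*.

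Genes just outside the interval have 2 copies in all groups. Of 29 names on the lists for both flanks, 20 were tested and 1 was called, *Eif3c*, on the *Sult1a1* side. *Eif3c* (ENSRNOG00000018761), a core subunit of translation initiation factor eIF3, stood at 176, 199, 188 and 188 CPM in Del/Dup and at 215 to 232 CPM (median 229.7) in wt. The groups did not overlap, and the level was lower by a fold of 0.830 (log2 fold change -0.27, SE 0.0415, adjusted p = 0.0129). In Del/+ it lay at 199.7 to 221 CPM and in Dup/+ at 225 to 246 CPM, with log2 fold changes of -0.12 and 0.05 that were not called. Of 10 tested eIF3 subunits, 9 had a negative log2 fold change (median -0.05), and *Eif3c* was the 1 called. The most abundant subunit in wt, *Eif3a*, had -0.02 and *Eif3m* 0.04. Leaving out either Del/Dup replicate 2 or replicate 4 ended the call, while the log2 fold change stayed at -0.29 to -0.24 in all 19 fits with 1 library left out. With the term for more than 50% multi-mapped reads it was -0.18, and with that term at 55%, a limit chosen after seeing the data, it was -0.14, neither called.

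On the same side, *Xpo6*, an exportin of actin, and *Sh2b1*, an adaptor of insulin and leptin receptors, also lay below all wt libraries. *Xpo6* stood at 111, 130.2, 127 and 129 CPM in Del/Dup replicates 2, 3, 4 and 5 against 131 to 146 CPM, and *Sh2b1* at 48.6, 54.5, 54.1 and 54.1 CPM against 54.6 to 60.2 CPM. Neither was called (log2 fold changes -0.14 and -0.12, adjusted p = 0.174 and 0.163). *Sgf29*, a subunit of histone acetyltransferase complexes, had -0.37 (adjusted p = 0.0872 in edgeR and 0.0195 in DESeq2), and its log2 fold change in Dup/+ was -0.43, called in edgeR (adjusted p = 0.0141). *Spns1*, a lysosomal transporter, had 0.18 (adjusted p = 0.206). *Lat*, *Apobr*, *Rabep2*, *Tufm*, *Atxn2l*, *Cln3* and *Nfatc2ip* had log2 fold changes of -0.21 to 0.64 with overlapping groups. On the *Spn* side 8 genes were tested and none was called. The 1 with an unadjusted p under 0.05 was *Cd2bp2*, a spliceosome protein, at 133 to 148 CPM against 129 to 137 CPM (log2 fold change 0.12, adjusted p = 0.16 in edgeR and 0.0341 in DESeq2). The others, *Tbc1d10b*, *Mylpf*, *Sept1*, *Dctpp1*, *Itgal*, *Zfp771* and *Sephs2*, had log2 fold changes of -0.10 to 0.25.

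The neighbourhood was widened in the gene order of the GRCr8 table, to which 13714 of the genes tested (88.8%) matched by name. Among the 10 nearest tested genes on each side of the interval, 6 of 20 had an unadjusted p under 0.05. The share was 22% among the nearest 50 on each side, 18.7% among the nearest 500 and 16.2% over all genes. The median absolute log2 fold change was 0.13, 0.11 and 0.09 in these windows and 0.09 over all genes. Of the 8 called genes that matched the table, 4 were on the chromosome of the interval, *Sult1a1*, *Eif3c*, *Vegfb* and *Mical2*, and the last 3 were among the nearest 500. That chromosome holds 1683 (12.3%) of the matched genes, of which 17.9% had an unadjusted p under 0.05.

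*Vegfb* (ENSRNOG00000021156), a growth factor of the VEGF family, stood at 13.6, 12.2, 9.27 and 12.9 CPM in Del/Dup and at 16.6 to 18.8 CPM (median 17.6) in wt. All Del/Dup libraries were below the wt range, and the log2 fold change was -0.55 (SE 0.101, adjusted p = 0.0455). It was -0.07 in Del/+ and -0.31 in Dup/+, neither called. *Mical2* (ENSRNOG00000016244), which encodes an enzyme that oxidizes and disassembles actin filaments, stood at 345, 305, 327 and 343 CPM against 383 to 439 CPM (median 406). It was lower by a fold of 0.807 (log2 fold change -0.31, adjusted p = 0.0273), and the log2 fold changes of the other carriers were -0.28 for Del/+ (adjusted p = 0.0105) and -0.23 for Dup/+, with an adjusted p of 0.0555. The 3 comparisons share the wt libraries. The call of *Vegfb* was lost in 12 and that of *Mical2* in 3 of 19 fits with 1 library left out, and *Mical2* was also not called with wt replicate 5 counted as Dup/+ (edgeR adjusted p = 0.0762).

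*Cd9* (ENSRNOG00000019556), a tetraspanin of cell membranes that is abundant in oligodendrocytes, stood at 57.6, 48.8, 51.8 and 54.1 CPM in Del/Dup and at 39.8 to 46.7 CPM (median 43.9) in wt. The groups did not overlap, and the log2 fold change was 0.28 (SE 0.0527, adjusted p = 0.048). It was 0.40 in Del/+, with an adjusted p of 0.000143, and 0.12 in Dup/+, with one of 0.503. *Mfn1* (ENSRNOG00000011057), a GTPase that fuses the outer membranes of mitochondria, stood at 83.4, 68.2, 75.7 and 74.7 CPM against 58.3 to 67.1 CPM (log2 fold change 0.28, adjusted p = 0.048). Its log2 fold changes in Del/+ and Dup/+ were 0.07 and 0.06. *Col16a1* (ENSRNOG00000031475), a collagen that lies on the surface of larger fibrils, stood at 16.1, 13.6, 16.8 and 16.3 CPM against 8.70 to 11.6 CPM (log2 fold change 0.62, SE 0.119, adjusted p = 0.048). It was higher by a fold of 1.54, while in Del/+ and Dup/+ the log2 fold changes were 0.22 and -0.07. All 3 genes were at the margin of the threshold. The call of *Cd9* and that of *Mfn1* were each lost in 16 of 19 fits with 1 library left out, and that of *Col16a1* in 14. All 3 calls were lost without Del/Dup replicates 2 and 4, with log2 fold changes of 0.24 for *Cd9*, 0.20 for *Mfn1* and 0.55 for *Col16a1* in that fit of 2 Del/Dup libraries. The call of *Cd9* was also lost with wt replicate 5 counted as Dup/+ (edgeR adjusted p = 0.0733).

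**Figure D3:**
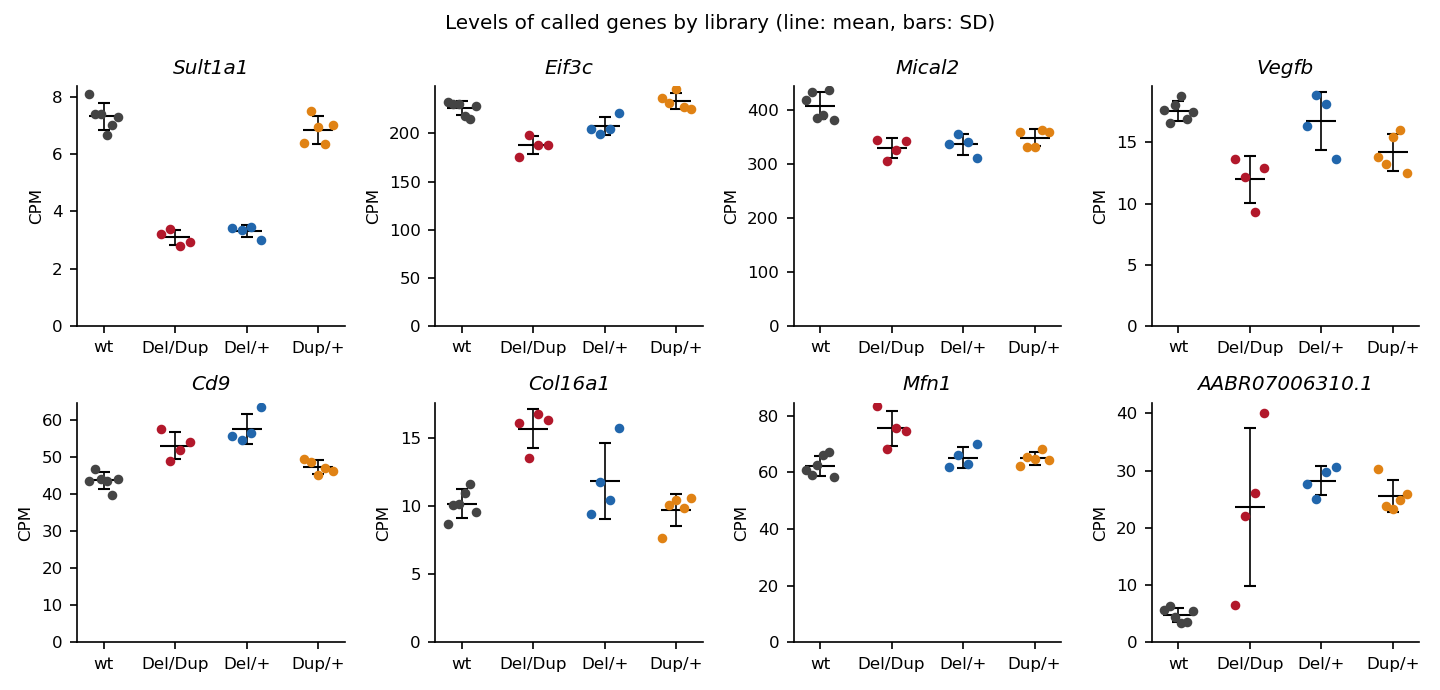
CPM of 8 called genes by library in the 4 groups, with the group mean (horizontal line) and SD (bars) and each axis from 0. *Sult1a1* lies near 3 CPM in Del/Dup and Del/+ and near 7 CPM in wt and Dup/+, while the carrier groups have lower means than wt for *Mical2* and higher means for *AABR07006310.1*, with 1 Del/Dup library at 6.50 CPM.

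Among the called genes without a known product, *AABR07006310.1* (ENSRNOG00000021084) stood at 6.50, 22.0, 26.0 and 40.1 CPM in Del/Dup replicates 2, 3, 4 and 5, and at 3.36 to 6.35 CPM (median 4.93) in wt. Replicate 2 was just above the highest wt library, and the other 3 were well above it (log2 fold change 2.29, SE 0.287, adjusted p = 0.000986). Del/+ libraries lay at 25 to 30.7 CPM and Dup/+ libraries at 23.2 to 30.3 CPM, so that 12 of the 13 libraries of carriers were at 22.0 CPM or more. The call held without any 1 library. It was lost in the 10 libraries alone (edgeR adjusted p = 0.0742) and with the term for more than 50% or 55% multi-mapped reads (0.0979 and 0.134), at log2 fold changes of 2.29 to 2.44. *AABR07015081.2* (ENSRNOG00000054945) stood at 7617, 15229, 15487 and 8150.2 CPM in Del/Dup and at 394 to 2559 CPM (median 990.0) in wt (log2 fold change 3.31, SE 0.521, adjusted p = 0.0129). Its level was high in the libraries with a high multi-mapped share. Del/+ replicates 1 to 3, with multi-mapped shares of 63.9% to 76.3%, had 10129 to 22705 CPM, and Del/+ replicate 4, with 41.6%, had 1686 CPM. With a term for libraries of more than 50% multi-mapped reads its log2 fold change was 1.29 (edgeR adjusted p = 0.491), and with that term at 55% it was -0.04 (0.991). *LOC100364769* (ENSRNOG00000029588) was also high in the libraries with a high multi-mapped share, with 0.514, 1.10, 1.01 and 0.705 CPM in Del/Dup, 0.0685 to 0.293 CPM in wt, 0.869 to 1.11 CPM in Del/+ replicates 1 to 3 and 0.403 CPM in Del/+ replicate 4 (log2 fold change 1.83 in Del/Dup, adjusted p = 0.0378). That call was lost in 7 of 19 fits with 1 library left out, in the 10 libraries alone, with the replicate block, with *Ttr* as covariate and without Del/Dup replicates 2 and 4, and with the terms at 50% and 55% the log2 fold change was 0.75 and 0.67, not called. The part of the multi-mapped reads in the other called genes was not tested beyond these fits, whose terms rest on libraries of Del/+ and Dup/+.

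*Rcor2l1* (ENSRNOG00000021183), named as a relative of a corepressor gene, had 32 reads in the 4 Del/Dup libraries and 1 read in the 6 wt libraries. The ratio of reads per scaled library size was 64.1 (95% interval 10.7 to 2608, which covers counting error only and not the spread between rats). The call was lost in 13 of 19 fits with 1 library left out, and in 8 of these, the fit without wt replicate 5 among them, the gene did not pass the filter on low counts. It was not called with wt replicate 5 counted as Dup/+ (edgeR adjusted p = 0.0655). Its level was 0.196 to 0.471 CPM in Del/Dup, 0.0597 to 0.593 CPM in Dup/+ and 0 to 0.188 CPM in Del/+. The lower genes without a known product were *AABR07044711.1* (ENSRNOG00000047276), *AABR07026654.1* (ENSRNOG00000014745) and *LOC100361008* (ENSRNOG00000022490). *AABR07044711.1* stood at 132, 158, 137 and 129 CPM against 154 to 197 CPM in wt, the 1 called gene whose groups overlapped (log2 fold change -0.37, adjusted p = 0.0322). *AABR07026654.1* stood at 21.2 to 24.7 CPM against 27.5 to 30.0 CPM (log2 fold change -0.31, adjusted p = 0.048), and *LOC100361008* at 3.5 to 4.13 CPM against 4.70 to 6.44 CPM (log2 fold change -0.53, adjusted p = 0.048). In the 19 fits with 1 library left out the call of *AABR07044711.1* was lost in 8, that of *AABR07026654.1* in 16 and that of *LOC100361008* in 15. Whether reads of such genes are shared with similar copies elsewhere in the genome is uncertain.

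DESeq2 called 183 genes on the same libraries (1.19%), 91 higher and 92 lower, among them all 14 of edgeR. The 5 genes that DESeq2 alone called with the smallest adjusted p included *Prrt2*. *Cc2d2a*, a protein of the ciliary transition zone, stood at 27.7, 25.1, 28.9 and 27.5 CPM in Del/Dup and at 17.7 to 24.1 CPM in wt (log2 fold change 0.43, edgeR adjusted p = 0.0568). *Luc7l3*, a splicing factor, stood at 73.6, 62.0, 78.5 and 70.1 CPM against 47.3 to 61.5 CPM (0.40, edgeR adjusted p = 0.0568). Both had no overlap between groups, and both were called in edgeR without wt replicate 5 (adjusted p = 0.0179 for *Cc2d2a* and 0.0254 for *Luc7l3*) and with it counted as Dup/+. *Pcsk2*, a protease that matures neuropeptides, stood at 408 to 445 CPM against 456 to 500.5 CPM (-0.15, edgeR adjusted p = 0.084), and *RT1-Db1*, an MHC class II chain, is given with its family below.

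The pathways in which *Mapk3* and *Kctd13* act had no called member. Of 47 tested genes of the ERK pathway, outside the interval, 6 (12.8%) had an unadjusted p under 0.05, all lower, beside 16.2% of all genes, 8.06% lower. The median log2 fold change was -0.05. *Ksr1*, the scaffold that brings RAF, MEK and ERK together, had the lowest, -0.37, at 14.7, 23.9, 22.6 and 24.7 CPM against 25.3 to 31 CPM in wt (adjusted p = 0.173). The highest was *Rps6ka3*, an ERK-activated kinase (0.13), and the most abundant in wt *Rasgrf1*, an exchange factor of RAS (-0.09). Without Del/Dup replicates 2 and 4, 1 of the 47 had an unadjusted p under 0.05, beside 4.71% of all genes. Of 38 tested genes of the CUL3 and RhoA pathway, 3 were higher and 8 lower at that level, 28.9% in all (median -0.02), from *Kctd6* (-0.22) to *Kctd9* (0.28), both adaptors of the CUL3 ligase, with *Rock2*, a kinase activated by RhoA, at -0.07. *Kctd9* stood at 7.80 to 10.2 CPM in Del/Dup and 6.82 to 7.63 CPM in wt (adjusted p = 0.138). Without replicates 2 and 4 the counts were 1 higher and 1 lower.

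Genes of the synapse had mostly negative log2 fold changes, and none was called. Of 47 tested genes of vesicle release and the postsynaptic scaffold, 39 were negative, 16 had an unadjusted p under 0.05 on the lower and 3 on the higher side, and the median was -0.10. *Syt1*, the calcium sensor of release and the most abundant of the list in wt, stood at 1744 to 1832 CPM against 1804 to 2027 CPM (-0.10, adjusted p = 0.229). The range of the list went from *Homer3*, a scaffold of metabotropic glutamate receptors (-0.33), to *Syt2*, the calcium sensor of fast synapses (0.46). Of 36 glutamate and GABA receptor subunits, 12 were lower and 2 higher with unadjusted p under 0.05 (median -0.08). *Gabbr1*, a GABA-B receptor subunit, lay at 1204 to 1318 CPM in Del/Dup and 1324 to 1458 CPM in wt with no overlap (-0.17, adjusted p = 0.16). *Grik4*, a kainate receptor subunit of CA3 neurons, had the lowest value of the list (-0.35) and *Grm8*, a presynaptic glutamate receptor, the highest (0.51). Beside 8.06% of all genes lower at this level, these were 16 of 47 and 12 of 36. Without Del/Dup replicates 2 and 4, where 2.41% of all genes were lower, both counts were 0 and the medians -0.07 and -0.04. Against the same wt libraries the 2 medians were -0.12 and -0.05 in Del/+ and -0.06 and -0.04 in Dup/+.

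Markers of pyramidal and granule neurons were lowest in the same libraries. The median over 14 tested markers was -0.21, and none was called. At an unadjusted p under 0.05, 3 were lower and 1 was higher, beside 8.06% and 8.15% of all genes. *Prox1*, a granule neuron factor named after its values were seen, stood at 76.8, 189, 119 and 156 CPM in Del/Dup replicates 2 to 5 and at 136 to 195 CPM in wt. *Slc17a7* stood at 1549.9, 1999, 1774 and 1848 CPM against 1933 to 2226 CPM (log2 fold change -0.24, adjusted p = 0.139). Replicates 2 and 4 were the lowest for both genes. *Bok* had the lowest log2 fold change of the list (-0.43). In bulk tissue, fewer cells of a type and less RNA per cell cannot be told apart. Without replicates 2 and 4 the median of the list was -0.03. The 13 tested interneuron markers had a median of -0.04, from *Lhx6*, a factor of interneuron fate (-0.21), to *Vip*, a neuropeptide (0.35).

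Choroid plexus markers had the largest median of any list, again without a call. Of 18 tested markers, all had a positive log2 fold change, 16 had an unadjusted p under 0.05, beside 8.15% of all genes higher, and the median was 3.11. *Ttr*, transthyretin, the chief secreted protein of this epithelium, stood at 1087, 96.3, 499.6 and 34.4 CPM in Del/Dup and at 0.921 to 27.4 CPM (median 3.36) in wt. All Del/Dup libraries were above all wt libraries, replicate 5 by the least (log2 fold change 5.36, SE 1.49, adjusted p = 0.144). *Kl*, the ageing-linked klotho, stood at 54.3, 6.91, 34.8 and 3.02 CPM against 0.522 to 2.47 CPM. *Enpp2*, autotaxin, stood at 361, 125, 231 and 130.4 CPM against 93.3 to 120.4 CPM (1.03, adjusted p = 0.154), and *Calml4* had the smallest log2 fold change (0.27). The summed level of the 18 markers was 1716, 268, 899 and 192 CPM in Del/Dup and 114 to 177 CPM in wt. It reached 1804 CPM in Del/+ and 668 CPM in Dup/+. Without Del/Dup replicates 2 and 4 the median was 1.02 and no marker had an unadjusted p under 0.05, beside 4.71% of all genes.

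Motile cilia and ependymal genes, which line the ventricles beside the choroid plexus, had a smaller median. Of 35 tested, 32 were positive, 12 had an unadjusted p under 0.05, all higher, beside 8.15% of all genes, and the median was 0.30. The summed level was 183 to 215 CPM in Del/Dup and 135 to 185 CPM in wt, so that the groups overlapped. *Dnai2*, an axonemal dynein chain, had the highest log2 fold change (0.91), *Stoml3* the lowest (-0.14), and *Dnah9*, another dynein chain and the most abundant in wt, had 0.24. The median without replicates 2 and 4 was 0.17. Against the same wt libraries the median was 0.35 in Del/+ and 0.35 in Dup/+.

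**Figure D4:**
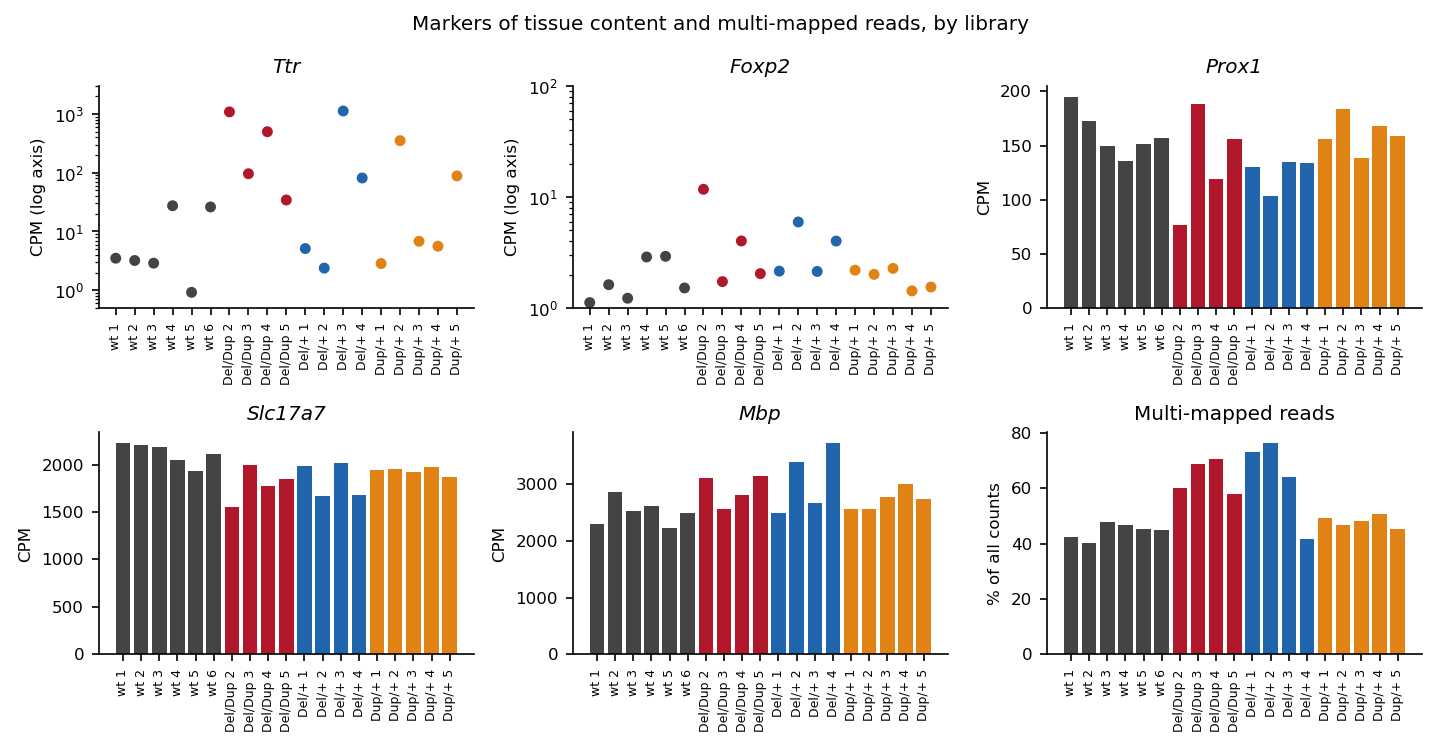
Levels of *Ttr* (choroid plexus) and *Foxp2* (cortex and striatum) on log axes, of *Prox1*, *Slc17a7* and *Mbp* in CPM from 0, and the multi-mapped share in % of all counts in the files, summary lines included, for each of the 19 libraries coloured by group. Del/Dup replicates 2 and 4 have the highest *Ttr* and *Foxp2* of their group and the lowest *Prox1* and *Slc17a7*, and the multi-mapped share is above that of wt in all 4 Del/Dup libraries.

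Some markers of brain regions around the hippocampus were high in Del/Dup replicates 2 and 4, and replicate 2 stood above wt in the median of 3 such lists. *Foxp2*, a factor of deep cortical layers and striatum, stood at 11.7, 1.73, 4.01 and 2.04 CPM against 1.12 to 2.92 CPM (log2 fold change 1.34, adjusted p = 0.173). *Cux2*, of upper cortical layers and named after its values were seen, stood at 63.6, 30.5, 51.2 and 25.7 CPM against 24.2 to 43.3 CPM (0.52). Replicates 2 and 4 were the highest Del/Dup libraries for both genes. The summed level of 10 striatal markers was 266, 206, 215 and 176 CPM in Del/Dup and 186 to 205 CPM in wt, with replicates 2, 3 and 4 above wt. That of 8 cortical markers was 408, 460, 421 and 407 CPM against 413 to 486 CPM, and that of 9 thalamic markers 129, 129, 124 and 140 CPM against 129.8 to 158 CPM. The cortical and thalamic sums of replicates 2 and 4, which the most abundant members carry, lay within or below the wt range, while the medians over members did not follow them. The median log2 difference from the wt mean was 0.41, 0.10, 0.09 and -0.11 in Del/Dup and -0.18 to 0.10 in wt for striatal markers. For cortical markers it was 0.26, -0.02, 0.15 and -0.08 in Del/Dup against -0.12 to 0.15, and for thalamic markers 0.31, 0.03, 0.07 and -0.02 against -0.02 to 0.12. At an unadjusted p under 0.05, 4 of 8 cortical markers were higher and 2 lower, 2 of 9 thalamic markers were higher and 1 lower, and 2 of 10 striatal markers were higher, beside 8.15% higher and 8.06% lower of all genes. The medians of the log2 fold changes were 0.12 for striatal, 0.07 for cortical and 0.14 for thalamic markers. *Bcl11b*, a factor of deep cortical and hippocampal neurons (-0.30), *Rspo1* (-0.42), *Adora2a* (-0.20), *Pde10a* (-0.05), *Plekhg1* (-0.32) and *Tnnt1* (1.09) were the other named members. Without replicates 2 and 4 the medians were -0.02, -0.05 and -0.01. The part of choroid plexus or other tissue in the lower synaptic and neuronal values was not tested.

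Among glia, oligodendrocyte genes lay slightly higher. Of 20 tested, 15 were positive, 5 were higher and 1 lower with unadjusted p under 0.05, beside 8.15% and 8.06% of all genes, and the median was 0.16, or 0.15 without Del/Dup replicates 2 and 4, where 0 were higher and 0 lower at that level. The medians of Del/+ and Dup/+ against the same wt libraries were 0.24 and 0.11. *Mbp*, myelin basic protein, stood at 3121, 2569.6, 2820.1 and 3148 CPM against 2224 to 2875 CPM in wt (0.22, adjusted p = 0.273). *Aspa*, which breaks down N-acetylaspartate, had 0.30, and *Bmp4*, of immature oligodendrocytes, -0.56. The 15 astrocyte markers had 14 negative values and a median of -0.10, with *Gfap*, the intermediate filament, at -0.19 and *S100b* at 0.03. The 16 microglia markers had a median of -0.03, with *Cx3cr1*, the fractalkine receptor, at -0.14 and *Ptprc* at 0.17. The 17 endothelial and mural markers had a median of -0.09, from *Notch3*, of mural cells (-0.32), to *Tek*, an angiopoietin receptor (0.05). Meningeal fibroblast markers (11 tested, median 0.05) held *Igf2*, a growth factor also made by choroid plexus, at 61.9, 21.2, 60.1 and 27.2 CPM against 17.5 to 24.2 CPM (1.04, adjusted p = 0.191). Neurogenic markers (15 tested, median 0.06) and red blood cell genes (8 tested, median -0.02) had no call.

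Rat MHC genes had a median log2 fold change of 0.28 over 23 tested members, of which 8 were higher and 1 lower with unadjusted p under 0.05, beside 8.15% and 8.06% of all genes, and none was called. Against the same wt libraries the median was 0.17 in Del/+ and 0.32 in Dup/+, and without Del/Dup replicates 2 and 4 it was 0.12 in Del/Dup, with 6 members higher and 0 lower. *RT1-N2*, a class I gene, was uneven among rats, with 0.187, 0.471, 7.17 and 7.72 CPM in Del/Dup and 3 reads in all 6 wt libraries together. It was above 6 CPM also in 1 of 4 Del/+ and 3 of 5 Dup/+ libraries and below 0.5 CPM in the rest. The ratio of its reads, pooled over the rats of a group, to wt was 263 (95% interval 89.3 to 1280). That interval covers counting error only, and most of the reads came from 2 of the 4 Del/Dup rats. The edgeR adjusted p was 0.113. *RT1-Db1* stood at 0.794, 0.262, 1.79 and 0.549 CPM against 0.0307 to 0.296 CPM (log2 fold change 2.13, adjusted p = 0.0568 in edgeR, and 0.0411 without wt replicate 5). *RT1-S3*, the most abundant member in wt, had -0.13, and *RT1-M6-2* the lowest value, -0.38. The 25 interferon response genes had a median of -0.02, from *Oasl* (-0.58) to *Bst2* (0.70), with *B2m*, the light chain of class I molecules, at -0.03.

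Immediate-early genes, which neurons switch on with activity, had a median of 0.21 over 24 members, 3 higher and 1 lower with unadjusted p under 0.05. Those 4 are 16.7% of the list, near the 16.2% of all genes. *Egr2* stood at 9.95, 2.62, 5.57 and 2.0 CPM against 1.10 to 3.56 CPM (1.26, adjusted p = 0.156), *Nr4a3* had the lowest value (-0.30), and *Jun* had -0.16. Replicates 2 and 4 were again the highest for *Egr2*, and without them the median was -0.03. For heat shock chaperones (26 tested) the median was -0.01, with *Hsp90ab1* at -0.12 and *Hspa1b* at -0.55. *Hspa8*, with 0.837 to 24.3 CPM in Del/Dup and 0.585 to 11.1 CPM in wt, was uneven in both groups, and how its reads were split from near-identical copies is uncertain. Circadian clock genes (20 tested) had a median of 0.08, from *Tef* (-0.11) to *Per3* (0.24), and of -0.02 without Del/Dup replicates 2 and 4. Glucocorticoid receptor genes and targets (19 tested), a list that also holds *Sult1a1*, had a median of 0.00, with *Nr3c2*, the mineralocorticoid receptor, at -0.28, *Cdkn1a* at 0.72 and *Lcn2* at -1.23.

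Among the housekeeping lists, the histone genes had the median farthest from 0. Cholesterol synthesis genes (24 tested) had a median of -0.03, from *Ebp* (-0.25) to *Pmvk* (0.19), with *Srebf2*, their transcription factor, at -0.15. Ribosomal protein genes (71 tested) had -0.01, with *Rpl3* at -0.05 and *Rpl30* at 0.47, and *Rps19* at 1.72 CPM or less in all 10 libraries. Nuclear genes of the respiratory chain (83 tested) had 0.00, with *Atp5f1b*, an ATP synthase subunit, at 0.00, *Ndufv3* at -0.30 and *Cox6a2*, a muscle-type cytochrome oxidase subunit at 0.274 to 1.71 CPM in Del/Dup, at 2.01 (adjusted p = 0.0774, and in edgeR 0.0444 without wt replicate 5 and 0.0480 with it counted as Dup/+). Mitochondrially encoded genes (21 tested) had 0.06 and small structured RNA genes (174 tested) 0.06. Without Del/Dup replicates 2 and 4 these medians were 0.01 and -0.22. In that fit 5 small structured RNA genes were higher and 11 lower with unadjusted p under 0.05, beside 2.3% and 2.41% of all genes. Replication-dependent histone genes (30 tested) had -0.12, with *Hist1h1c* at -0.11, and 6 were lower and 0 higher with unadjusted p under 0.05, beside 8.06% and 8.15% of all genes. No gene of these lists was called.

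**Figure D5:**
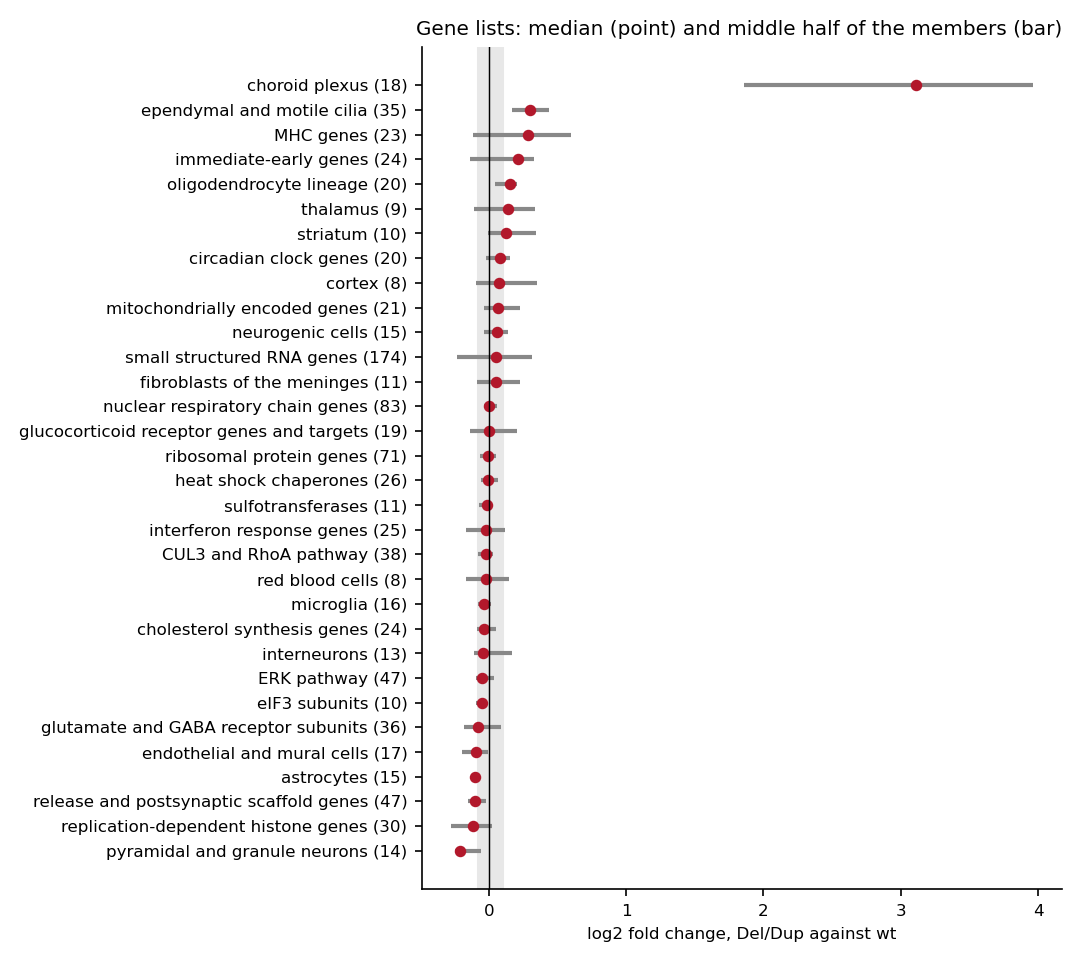
Median log2 fold change of Del/Dup against wt (point) and the range from lower to upper quartile of the members (bar) for 32 gene lists, with the number of tested members in brackets and the same range of all genes tested as a grey band around their median (black line). Choroid plexus stands apart at 3.11, and the other medians lie between -0.21 and 0.30.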

How the data were processed

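Per the labels and the study's methods, the authors sequenced hippocampal RNA with a stranded kit as single-end reads and aligned them with HISAT2 to rn6. The labels describe rRNA removal and also name polyA RNA, which was not settled here. The authors deposited HTSeq counts of reads in each Ensembl gene, not normalized, with 1 file for each library. The study's text speaks of normalized counts, but the values are whole numbers with totals that differ between libraries and end in the HTSeq summary lines, so they were used as raw counts. The counts of 32623 genes were used and the 5 summary lines left out, apart from the multi-mapped share.

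Genes that passed filterByExpr were tested with edgeR 4.0.16 (R 4.3.3): TMM scaling, a model of the 4 group means over the 19 libraries, quasi-likelihood test, prior count 2 and SE from the F statistic. DESeq2 1.42.0 served as an alternative. The common biological coefficient of variation was 0.101. The scripts were tested on simulated data. Measures of the libraries were compared by exact permutation over 210 splits. No pair of libraries of the same group agreed within sampling noise (smallest chi-square per degree of freedom 3.6). Nothing in the labels ties replicates to separate litters. Members and lists were chosen with earlier results of these data known. Named are all called, interval and flanking genes, in other lists the highest, lowest and most abundant member, and 5 genes of DESeq2 alone. The genes *Prox1*, *Cux2* and *Kl* were chosen after their values were seen. Some genes that the naming rule covers are not reported here.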

Additional observations from a re-analysis of the deposited data

Results flagged for a closer look

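Within groups, 134 sets of library values were checked for 1 library far from the rest by the ratio of its gap to the whole range, and 6 passed, where chance flags about 1 in 20. In wt, the highest library stood apart for *AABR07015081.2* (gap ratio 0.626) and for *Rcor2l1* (1, a single read), and the lowest for *Taok2* (0.693) and *AABR07005779.5* (0.733). In Del/Dup, *Prrt2* had 1 high library (0.842) and *Sh2b1* 1 low library (0.929).

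The multi-mapped reads, which were counted in no gene, made up 64.3% of all counts in the files, summary lines included, on average in Del/Dup, against 44.4% in wt, the control group.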

How the results depend on the processing

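The count of called genes was 183 in DESeq2, 9 with DESeq2 size factors in edgeR, 8 with library totals alone, 3 in the 10 libraries alone, 57 with wt replicate 5 counted as Dup/+, 2 with a term for over 50% multi-mapped reads and 3 with *Ttr* as covariate. With the alternatives chosen after seeing the data it was 3 with that term at 55%, 2 without Del/Dup 2 and 4, and 3 without these and wt 5. With the replicate block it was 7 genes, none of them flanking. Same-numbered libraries did not deviate together (correlations -0.24 to 0.10). So few pairs cannot show whether the numbers pair rats.

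Calls in the interval were 2 in DESeq2. Flanking calls were 3 in DESeq2 and 0 in the 10 libraries alone, with either multi-mapped term, with *Ttr*, and without Del/Dup 2 and 4 with or without wt 5. The interval median was -0.097 with the first multi-mapped term, 0.0019 at 55%, -0.016 without Del/Dup 2 and 4 and -0.023 without wt 5 too. Leaving out 1 library gave 2 to 216 calls, 1 to 3 in the interval, 0 to 2 in the flanks, interval medians of -0.0908 to -0.0257, and a multi-mapped difference of 17.7 to 22.0 percentage points. Of the 14 called genes, 1 reversed, *AABR07015081.2*, at -0.040 with the 55% term. The causes were not tested.

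Precision is lowest for genes under about 1 CPM, and genotype and multi-mapped share cannot be told apart in these 10 libraries.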
